A study of Mus musculus with 7 samples.

Results

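The genes described here are the oxygen-sensing machinery of the cell and a small set of genes that it controls, 10 in all. They comprise the alpha subunits of the hypoxia-inducible factors (Hif1a, Epas1 and Hif3a), the prolyl hydroxylases Egln1, Egln2 and Egln3, the ubiquitin ligase subunit Vhl, and the target genes Adm, Ankrd37 and Ndrg1. They were chosen by name, and every array probe whose annotated transcript belongs to them was taken, which gave 12 of 56605 non-control probes. All 10 were measurable among the 23679 genes tested, of which 14723 have a gene symbol. Total RNA of the heart apex was read on 1-colour Agilent arrays, each array holding a different mouse. Double knockout hearts (DKO, n = 3) came from mice whose Akt1 (exons 6 and 7) and Akt2 (exons 5 and 6) alleles were both homozygous for loxP sites, with a heterozygous MerCreMer transgene, a recombinase that tamoxifen activates and that the alpha myosin heavy chain (MHC) promoter confines to cardiomyocytes. The 4 control mice were heterozygous for MerCreMer without floxed Akt alleles. Mice of both groups were C57Bl/6 males aged 3 months, had 5 daily doses of 500 µg hydroxytamoxifen, and gave tissue 10 days after induction, so what they share includes the recombinase and the drug. Deletion was limited to cardiomyocytes, and RNA of other heart cells enters every value.

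In oxygenated cells, EGLN enzymes use molecular oxygen to hydroxylate prolines of HIF alpha subunits, and the VHL ubiquitin ligase then binds the hydroxylated protein and sends it for degradation. When oxygen is short, the alpha subunits persist, pair with ARNT and bind hypoxia response elements, whose core is ACGTG or GCGTG, near genes of glucose uptake, vessel growth and red cell production. Most of this control acts on protein, which arrays do not measure. Akt, a kinase of insulin and growth factor signalling, is known to raise HIF-1 alpha protein in many cell types, partly through mTORC1. In the heart, EPAS1 is abundant in endothelial cells and HIF1A in cardiomyocytes as well.

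Promoters of 4 target members are shown because they hold the sequence that HIF recognises. The mean differences of these genes below have different signs, but none had an adjusted p below 0.05. The promoter set held no entry for the target Ndrg1 or for Epas1, so neither could be searched. Each runs from 250 bases before to 50 bases after the start site, taken from RefSeq on build GRCm38.p6, and capitals mark ACGTG or GCGTG on either strand (CACGT and CACGC on the strand printed).
Ankrd37 (chr8:45999801-46000100, minus strand): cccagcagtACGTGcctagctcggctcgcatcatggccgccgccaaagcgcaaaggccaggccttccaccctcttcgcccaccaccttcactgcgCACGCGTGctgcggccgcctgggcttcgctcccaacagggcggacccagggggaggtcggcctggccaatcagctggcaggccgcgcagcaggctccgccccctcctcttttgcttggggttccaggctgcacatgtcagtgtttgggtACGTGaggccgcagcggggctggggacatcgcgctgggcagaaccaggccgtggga
Adm (chr7:110627407-110627706, plus strand): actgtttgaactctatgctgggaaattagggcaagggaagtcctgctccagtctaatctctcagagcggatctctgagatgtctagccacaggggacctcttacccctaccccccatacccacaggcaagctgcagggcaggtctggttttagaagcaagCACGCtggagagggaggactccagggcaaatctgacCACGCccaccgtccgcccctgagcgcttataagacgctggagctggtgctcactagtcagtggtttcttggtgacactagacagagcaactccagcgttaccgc
Egln3 (chr12:54203825-54204124, minus strand): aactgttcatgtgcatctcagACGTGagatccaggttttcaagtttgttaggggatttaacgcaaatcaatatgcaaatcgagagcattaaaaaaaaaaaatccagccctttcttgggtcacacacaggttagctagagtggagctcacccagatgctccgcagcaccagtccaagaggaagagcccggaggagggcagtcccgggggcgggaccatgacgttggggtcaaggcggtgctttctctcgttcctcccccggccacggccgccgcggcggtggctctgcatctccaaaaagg
Hif3a (chr7:17062378-17062677, minus strand): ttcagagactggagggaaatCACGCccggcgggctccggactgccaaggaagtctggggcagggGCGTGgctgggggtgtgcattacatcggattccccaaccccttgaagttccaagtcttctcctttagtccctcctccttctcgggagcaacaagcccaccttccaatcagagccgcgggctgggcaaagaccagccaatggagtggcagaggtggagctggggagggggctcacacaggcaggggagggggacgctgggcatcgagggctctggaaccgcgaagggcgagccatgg

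The Ankrd37 promoter held 4 matches, a pair of them overlapping on opposite strands, while the Adm and Hif3a promoters held 2 each and the Egln3 promoter 1. Of 9 promoters listed for 8 members, 8 held a match, the exception being Vhl. The first Egln2 promoter held 6 matches, Hif1a 3, Egln1 2 and the second Egln2 promoter 1. The palindrome CACGTG counts on both strands, and it occurs once in the Hif1a and once in the first Egln2 window. Across all 32851 promoters of the table, 43.8% held a match, and a match in this window is no evidence of binding. The 9 windows held 4 to 60 CG dinucleotides, against a median of 7 over all promoters, and the motifs themselves contain CG.

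The arrays had 0 saturated spots and 50.9% to 55.7% of probes well above background, and their number limits the precision. Arrays correlated at 0.991 to 0.992 within DKO, 0.984 to 0.995 within control and 0.978 to 0.990 between groups. Control replicate 1 gave the lowest correlations among controls (0.984 to 0.987). The brightest Akt2 probe was 4.13-fold lower in DKO hearts (log2 difference -2.05 ± 0.07, SE), whereas the brightest Akt1 probe gave 0.17 ± 0.07 (adjusted p = 0.000203 and 0.199 over probes by limma). The second Akt1 probe gave 0.47 ± 0.16, and the other Akt2 probes were 4.87-fold and 1.60-fold lower, so no Akt1 probe was lower in the hearts labelled double knockout. Where these probes lie relative to the deleted exons was not analysed here. Over all genes, 4.70% differed by two-sided limma tests with Benjamini-Hochberg adjusted p below 0.05, and 4.39% of probes did.

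None of the 10 genes passed that threshold, against 4.70% of all genes (and 0 of their probes, against 4.39% of all probes). Unadjusted p was below 0.05 for 4 of them (Ndrg1 and Hif3a higher in DKO hearts, Adm and Egln3 lower), against 25.5% of all genes. The median log2 difference was 0.03 for the 10 genes and -0.02 for all genes, with 7 of the 10 higher, of which Epas1, Egln1 and Egln2 changed sign under quantile normalisation. In 3 of the 10 the DKO and control values did not overlap, against 25.7% of all genes. Values below are normalised log2 signals, differences are DKO minus control with SE (n = 3 and 4), intervals are 95% intervals from the same limma fit, and adjusted p is over all genes unless stated. The exact permutation test over the 7 arrays has few possible splits, so its p-values are coarse. Its lowest two-sided p among the 10 genes was 0.0571, for Ndrg1 and Adm.

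**Figure D1:**
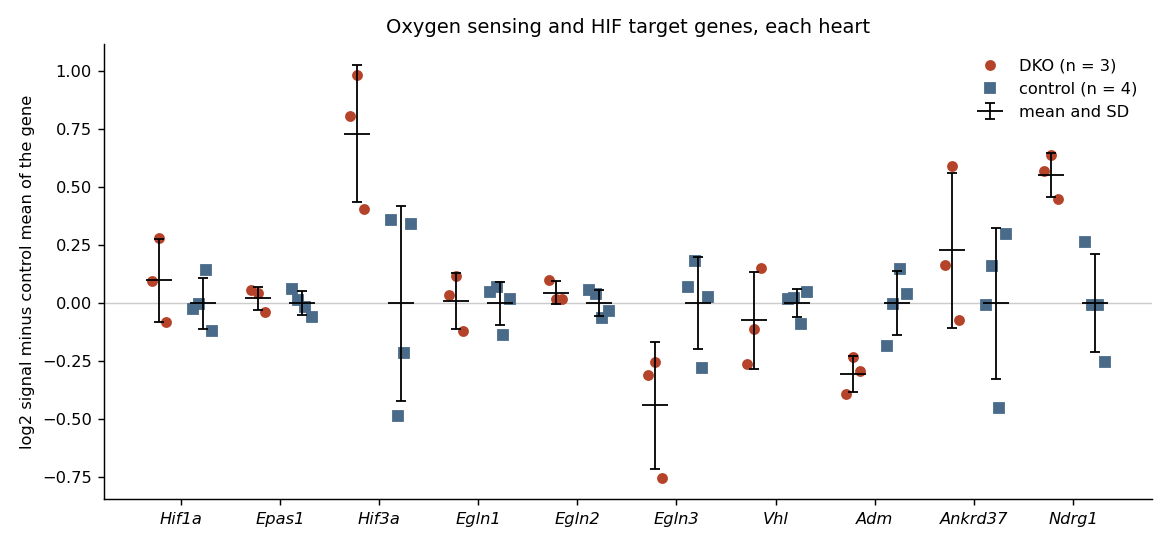
Log2 signal of each gene minus its control mean (y axis) in every heart, with DKO hearts as red circles (n = 3), control hearts as blue squares (n = 4), and bars for mean and SD. Ndrg1, Hif3a and Adm have groups that do not overlap, and the points of Epas1, Egln1 and Egln2 lie together near 0.

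Among the HIF alpha subunits, Hif1a, the widely expressed subunit that drives glycolytic genes, read 11.86, 12.04 and 11.68 in DKO hearts and 11.74, 11.76, 11.91 and 11.64 in control hearts. These ranges overlapped, and the difference was 0.10 ± 0.11 (interval -0.16 to 0.36, adjusted p = 0.604 by limma). It was 0.0081 without DKO replicate 2 and 0.19 without DKO replicate 3. Epas1, which encodes HIF-2 alpha, read 15.42, 15.41 and 15.33 in DKO hearts and 15.43, 15.38, 15.35 and 15.31 in control hearts. Epas1 values lay close together, at 15.39 ± 0.05 in DKO and 15.37 ± 0.05 in control hearts (SD), and its difference of 0.02 ± 0.07 had an interval of -0.14 to 0.18 (adjusted p = 0.873 by limma). Endothelial markers, listed because Epas1 is abundant in that cell type, were higher for 10 of 10 genes and called for 0, with a median of 0.20. Their summed signal was 114% to 116% of the control mean in DKO hearts and 93.8% to 110% in control hearts. A difference in the number of cells of a type and one in RNA per cell cannot be told apart in such tissue, and the part of the endothelial signal in the Epas1 value was not tested.

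Hif3a encodes another alpha subunit whose short isoforms restrain the other two, and it is itself a HIF target. Its brighter probe read 6.34, 6.52 and 5.94 in DKO hearts and 5.89, 5.04, 5.32 and 5.88 in control hearts. All DKO values lay above all control values, but DKO replicate 3 exceeded control replicate 1 by little. The difference was 0.73 ± 0.25, or 1.66-fold (interval 0.15 to 1.32), with an adjusted p of 0.131 by limma. Within the first row of the slide, which held DKO replicate 3 and control replicates 1, 3 and 4, the difference was 0.24, and within the second row, with DKO replicates 1 and 2 and control replicate 2, it was 1.38. The probe was well above background on all 7 arrays. The dimmer Hif3a probe was not well above background on any array, so it allows no fold.

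The oxygen sensors were represented by the EGLN enzymes. Egln1, the main hydroxylase that sets HIF-1 alpha levels in normal oxygen, read 15.57, 15.65 and 15.42 in DKO hearts and 15.59, 15.61, 15.40 and 15.56 in control hearts. The ranges coincided almost fully, with a difference of 0.01 ± 0.09 (interval -0.20 to 0.22, adjusted p = 0.958 by limma). The brighter Egln2 probe read 13.24, 13.15 and 13.15 in DKO hearts and 13.19, 13.17, 13.07 and 13.10 in control hearts, a difference of 0.05 ± 0.07 (interval -0.12 to 0.21, adjusted p = 0.712 by limma). The dimmer Egln2 probe read 10.34, 10.33 and 10.17 in DKO hearts and 9.91, 10.07, 10.09 and 10.06 in control hearts. Here the groups did not overlap, and the difference was 0.25 ± 0.08 (adjusted p = 0.134 over probes by limma), so the probes of Egln2 gave different sizes. Egln2 lies near Akt2 on chromosome 7, with 17 tested genes between them in the RefSeq order. Of 20 tested genes, 10 on each side of Akt2 and not including Egln2, 1 was called higher and 2 lower. Of all genes 2.41% were called higher and 2.29% lower. Hif3a and Adm also lie on chromosome 7, with 122 and 576 tested genes between them and Akt2. Hif1a and Egln3 share chromosome 12 with Akt1, with 249 and 331 tested genes between. Any effect of a targeted Akt locus on the values of Egln2 or these other members was not tested.

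Egln3, a hydroxylase whose gene is itself induced by HIF, had the largest difference among the EGLN genes. It read 10.61, 10.67 and 10.17 in DKO hearts and 11.00, 11.11, 10.64 and 10.95 in control hearts. DKO replicate 3 was lowest, and the groups overlapped slightly because DKO replicate 2 exceeded control replicate 3. Signal averaged 73.7% of control (difference -0.44 ± 0.16, interval -0.82 to -0.06), with an adjusted p of 0.149 by limma. It was -0.69 within the first slide row and -0.47 within the second, and without DKO replicate 3 it was -0.28.

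Vhl, which recognises hydroxylated HIF, read 9.43, 9.58 and 9.84 in DKO hearts and 9.71, 9.71, 9.60 and 9.74 in control hearts. DKO hearts spread more (SD 0.21) than control hearts (SD 0.06), and lay on both sides of them. The difference was -0.07 ± 0.11 (interval -0.33 to 0.18, adjusted p = 0.705 by limma), and it was 0.16 within the first slide row and -0.21 within the second.

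**Figure D2:**
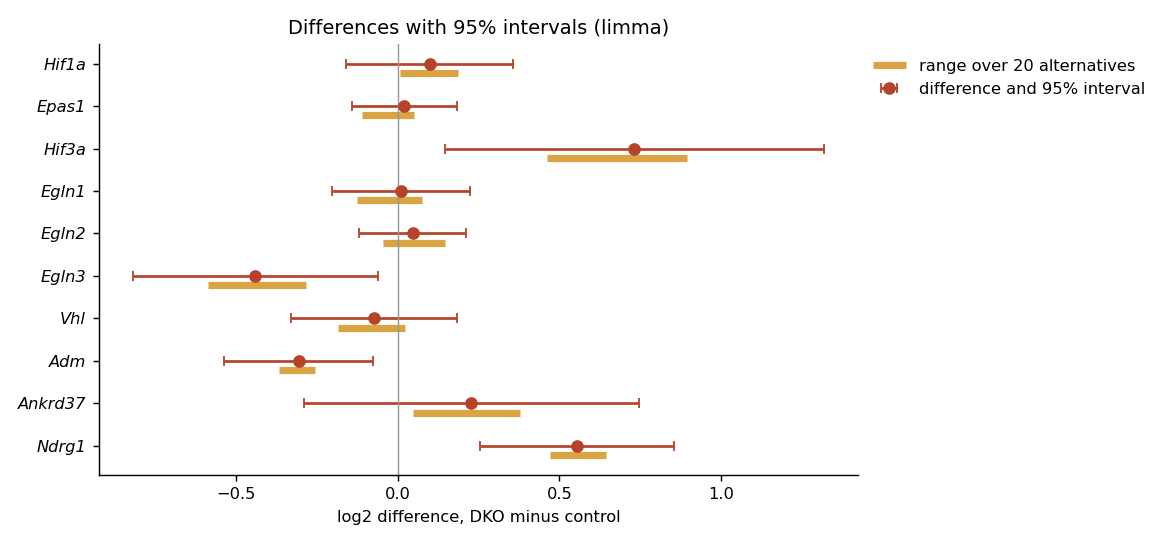
Log2 difference, DKO minus control (x axis), for each gene, as a red point with its 95% interval from limma, above an ochre bar for the range over 20 processing alternatives. The intervals of Ndrg1, Hif3a, Adm and Egln3 exclude 0 before adjustment over all genes, and the intervals of the other 6 genes include it.

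Among the target genes, Ndrg1 came nearest to the threshold. It encodes a cytoplasmic protein of the N-myc downstream regulated family that rises under hypoxia and other stress, and that the Akt-related kinase SGK1 phosphorylates. Ndrg1 read 12.97, 13.04 and 12.85 in DKO hearts and 12.66, 12.39, 12.39 and 12.14 in control hearts. All DKO hearts lay above all control hearts, and control replicate 1 was the highest control. The means were 12.95 ± 0.10 in DKO and 12.40 ± 0.21 in control hearts (SD), a difference of 0.55 ± 0.13 or 1.47-fold (interval 0.25 to 0.85, adjusted p = 0.0581 by limma). It was 0.45 and 0.61 within the first and second slide rows. The adjusted p was below 0.05 in 6 of 20 alternatives and ranged from 0.0209 with a trended variance to 0.191 without the filter on dim probes, so the side of the threshold depends on the processing. With 1 array left out it passed only without control replicate 1 (adjusted p = 0.0372 by limma).

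Adm encodes adrenomedullin, a vasodilator peptide made by endothelial cells, cardiomyocytes and other cells. It read 8.98, 9.14 and 9.08 in DKO hearts and 9.19, 9.37, 9.52 and 9.41 in control hearts. Every DKO value was below every control value, the closest pair being DKO replicate 2 and control replicate 1. Adm signal averaged 80.9% of control (difference -0.31 ± 0.10, interval -0.54 to -0.08), with an adjusted p of 0.116 by limma and 0.0571 in the exact permutation test. The difference was -0.30 within the first slide row and -0.31 within the second. It passed in 0 of 20 alternatives, the lowest adjusted p being 0.0573 with array weights. Mural cell markers, listed because adrenomedullin acts on vascular smooth muscle, were higher for 6 of 9 genes. Unadjusted p by limma was below 0.05 for 6 of the 9, among them Acta2, which was lower, against 25.5% of all genes. Only 1 rose at an adjusted p below 0.05, the smooth muscle myosin Myh11 (0.63, adjusted p = 0.0487 by limma), against 2.41% of all genes rising. That value lies just below the threshold, and the alternatives were not examined for Myh11. Acta2, the brightest mural marker, gave -0.41 ± 0.14, and the list median was 0.22. The summed mural signal was 89.0% to 99.3% of the control mean in DKO hearts and 90.9% to 104% in control hearts. The part of mural cells in the Adm value was not tested.

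Ankrd37, a small ankyrin repeat protein whose gene is a direct HIF-1 target, read 9.28, 9.70 and 9.04 in DKO hearts and 9.11, 9.27, 8.66 and 9.41 in control hearts. Both groups spread widely and overlapped (SD 0.34 in DKO and 0.33 in control). The difference of 0.23 ± 0.22 had an interval of -0.29 to 0.75 (adjusted p = 0.550 by limma), which is broader than those of Ndrg1 and Adm. It was -0.02 within the first slide row and 0.22 within the second, 0.0463 without DKO replicate 2 and 0.38 without DKO replicate 3.

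**Figure D3:**
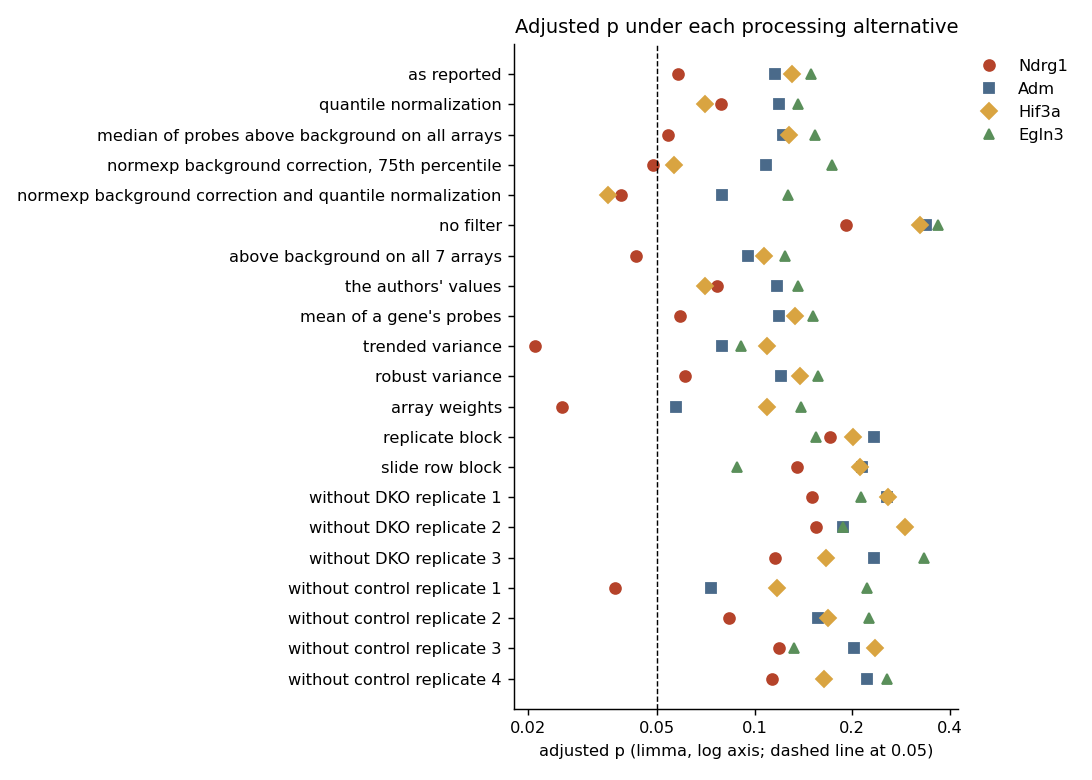
Adjusted p from limma (x axis, log scale, dashed line at 0.05) for Ndrg1, Adm, Hif3a and Egln3 under each processing alternative (y axis). Ndrg1 lies left of the line in 6 alternatives and Hif3a in 1, while Adm and Egln3 stay right of it in all 20.

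Of 21 partners and regulators of HIF, 20 were measured and 0 passed the test, against 4.70% of all genes (6 at an unadjusted p below 0.05, against 25.5%), with 13 higher and a median log2 difference of 0.09. Cited2, which competes with HIF alpha for the coactivator p300, read 11.96, 11.94 and 11.91 in DKO hearts and 11.46, 11.29, 11.67 and 11.26 in control hearts (0.51 ± 0.11, adjusted p = 0.0504 by limma). All DKO values exceeded all control values. Os9, an ER lectin of protein quality control that has been found in HIF-hydroxylase complexes in human cells, differed by 0.35 ± 0.08 (adjusted p = 0.0537 by limma). Cited2 passed in 5 and Os9 in 3 of 20 alternatives.

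HIF targets of glucose uptake and glycolysis lay on both sides of 0, with 13 higher and 10 lower. Of the 23 genes 1 rose and 0 fell, against 2.41% of all genes rising and 2.29% falling, and the median was 0.03. The gene that rose was Slc2a1, the basal glucose transporter, which read 10.81, 10.99 and 10.76 in DKO hearts and 10.02, 10.37, 10.01 and 10.10 in control hearts. The groups were well separated (1.66-fold, 0.73 ± 0.11, adjusted p = 0.0225 by limma), but with 1 array left out Slc2a1 passed in 2 of 7 fits (adjusted p up to 0.0785 without DKO replicate 1). The pyruvate dehydrogenase kinase Pdk1 (0.17 ± 0.11), phosphoglycerate kinase Pgk1 (-0.27 ± 0.09) and lactate dehydrogenase Ldha (-0.15 ± 0.06), named after their values were seen because they are textbook HIF targets, did not pass (adjusted p = 0.385, 0.120 and 0.197 by limma).

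HIF targets outside glucose use changed in both directions. Of 36 listed, 33 were measured, 5 rose and 1 fell (14 at an unadjusted p below 0.05), with a median of 0.07. Of all genes 2.41% rose, 2.29% fell and 25.5% had an unadjusted p below 0.05, which are the shares to set beside each list. Angptl4, an inhibitor of lipoprotein lipase, read 12.30, 11.54 and 11.47 in DKO hearts and 9.46, 9.07, 9.17 and 9.57 in control hearts (2.45 ± 0.23, adjusted p = 0.00677 by limma). The mitophagy receptor Bnip3 read 16.14, 16.09 and 15.70 in DKO hearts and 14.74, 14.84, 14.63 and 14.60 in control hearts (1.27 ± 0.13, adjusted p = 0.00778 by limma). Both genes stood clear of every control heart, and leaving out any of the 7 arrays did not end either call. Angptl4 is also an adipocyte gene, and of 6 adipocyte markers Adipoq, Plin1, Cidec and Retn did not pass the filter on dim probes. The measured adipocyte markers were Cfd, at 6.99 in DKO and 5.95 in control hearts (1.04 ± 0.44, adjusted p = 0.191 by limma), and Lep (-0.07 ± 0.15, adjusted p = 0.804 by limma). Cfd read 7.19, 6.65 and 7.13 in DKO hearts and 5.66, 5.27, 5.70 and 7.17 in control hearts, so the groups overlapped through control replicate 4. The mean of Cfd thus differed in the direction of Angptl4 without passing, and the part of adipocytes in the Angptl4 value was not tested.

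Mxi1, an antagonist of MYC, read 12.08, 12.01 and 12.12 in DKO hearts and 11.57, 11.53, 11.42 and 11.46 in control hearts (0.57 ± 0.07, adjusted p = 0.0125 by limma). The atypical cyclin Ccng2 read 9.30, 9.38 and 9.57 in DKO hearts and 8.93, 8.91, 8.98 and 8.97 in control hearts (0.47 ± 0.09, adjusted p = 0.0322 by limma). The collagen crosslinking enzyme Lox read 7.33, 7.58 and 7.58 in DKO hearts and 6.84, 7.02, 6.95 and 6.99 in control hearts (0.55 ± 0.09, adjusted p = 0.0280 by limma). In each of these genes the lowest DKO heart exceeded the highest control heart, by the least margin for Ccng2 and Lox. With an array left out Mxi1 passed in 5, Lox in 1 and Ccng2 in 0 of 7 fits (adjusted p up to 0.0604 without DKO replicate 1, 0.0923 without DKO replicate 2 and 0.0901 without control replicate 4). With slide row as a block Lox and Ccng2 did not pass (adjusted p = 0.0761 and 0.0519 by limma), and with the mean of probes Ccng2 did not (adjusted p = 0.0737 by limma). Fibroblast markers, listed because fibroblasts make Lox, were higher for 8 of 9 genes with 0 called and a median of 0.14. Their summed signal was 103% to 121% of the control mean in DKO hearts and 98.0% to 104% in control hearts, and their part in the Lox value was not tested.

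Tfrc, the transferrin receptor, was the target that fell. It read 8.87, 9.04 and 7.82 in DKO hearts and 10.86, 11.21, 10.42 and 10.83 in control hearts. The difference was -2.25 ± 0.32 (adjusted p = 0.0167 by limma), the largest decrease of the list, and it passed in 5 of 7 fits with an array left out (adjusted p up to 0.0600 without control replicate 4). Erythroid markers, in whose precursors Tfrc is abundant, were higher for 3 of 4 measured genes with 0 called, and their summed signal was 91.4% to 128% of the control mean in DKO hearts and 94.1% to 112% in control hearts. Their part in the Tfrc value was not tested. Vegfa, the vascular growth factor that is a classical HIF target and is named here after its value was seen, differed by -0.05 ± 0.17 (adjusted p = 0.891 by limma). It read 12.73, 12.73 and 12.72 in DKO hearts and 12.29, 12.97, 12.89 and 12.94 in control hearts. Control replicate 1 lay below every DKO heart and the other control hearts above them all, so the small mean difference depends on that replicate. Vegfa has 4 probes on the array, and the called Tfrc, Lox and Ccng2 have 2 each. For these, as for the other list genes, the heart values are of the brightest kept probe only.

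**Figure D4:**
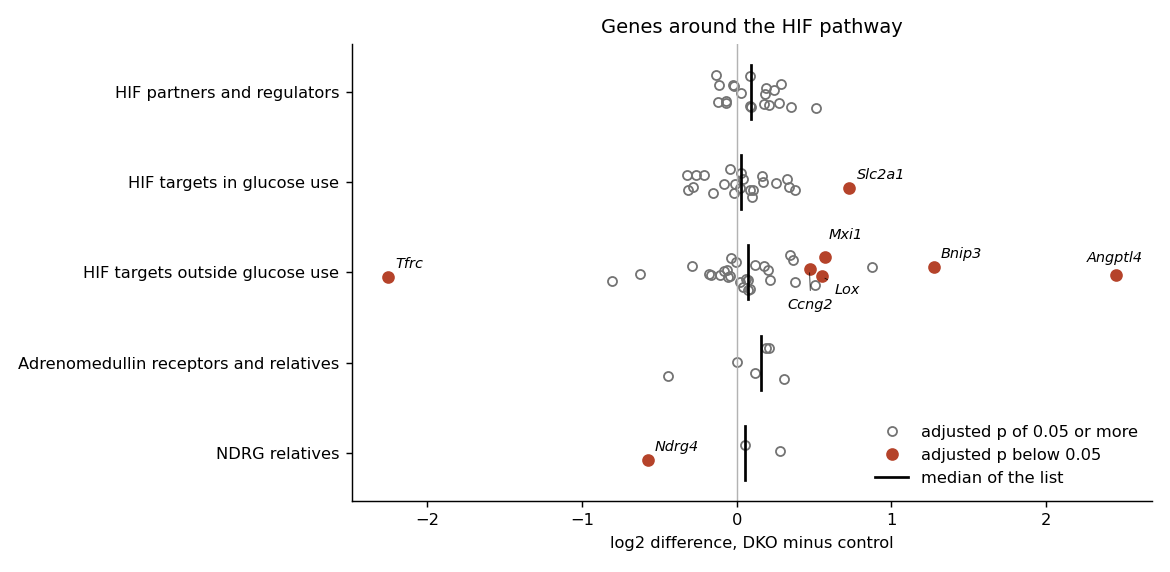
Log2 difference, DKO minus control (x axis), of every measured gene of 5 lists (rows, points spread vertically for visibility), with genes at an adjusted p below 0.05 filled and named and a black line for each list's median. The medians lie between 0.03 and 0.16, while single targets reach from -2.25 for Tfrc to 2.45 for Angptl4.

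**Figure D5:**
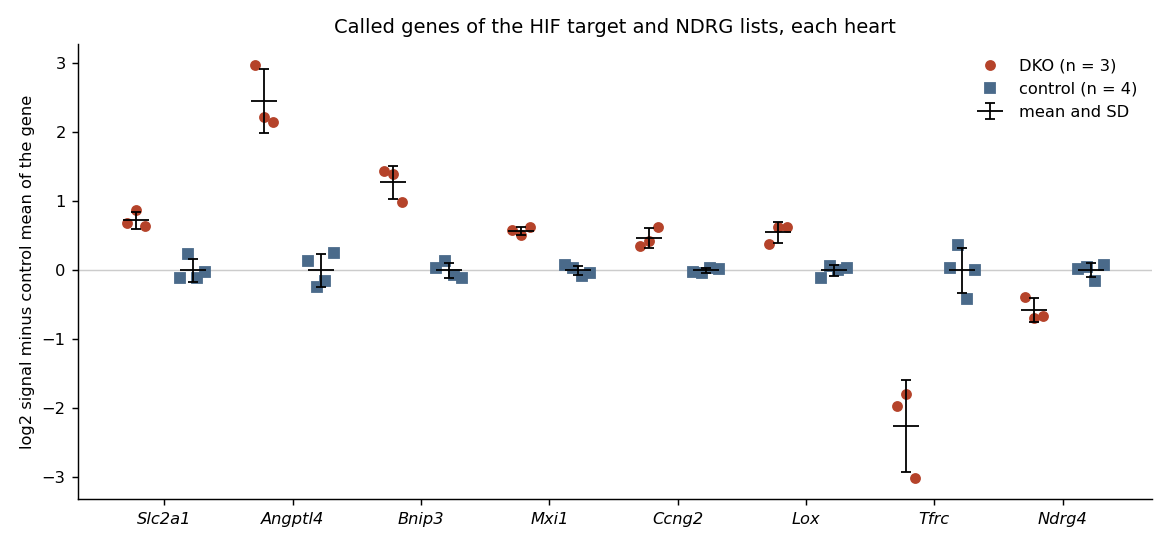
Log2 signal of the 8 called list genes minus each gene's control mean (y axis) in every heart, with DKO hearts as red circles (n = 3), control hearts as blue squares (n = 4), and bars for mean and SD. In all 8 genes the groups do not overlap, with Tfrc and Ndrg4 lower and the other 6 higher in DKO hearts.

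The receptor side of adrenomedullin was measured through 6 of 7 listed genes, of which 0 passed, against 4.70% of all genes (3 at an unadjusted p below 0.05, against 25.5%), with a median of 0.16. Ramp1, an accessory protein that turns the receptor Calcrl towards the related peptide CGRP, differed by -0.44 ± 0.14, and the endothelial receptor Gpr182 by 0.19 ± 0.07 (adjusted p = 0.119 and 0.140 by limma). Adm2 did not pass the filter on dim probes.

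Of 3 relatives of Ndrg1, 1 fell and 0 rose, against 2.29% and 2.41% of all genes, with a median of 0.05. Ndrg4, a family member of heart and brain, read 14.90, 14.59 and 14.63 in DKO hearts and 15.31, 15.33, 15.14 and 15.37 in control hearts. It was 1.49-fold lower (-0.58 ± 0.10, adjusted p = 0.0327 by limma), in contrast to the higher values of Ndrg1, and passed in 0 of 7 fits with an array left out (adjusted p up to 0.103 without DKO replicate 3). The mean of its probes gave -0.59 (adjusted p = 0.0659 by limma), and the slide row block -0.61 (adjusted p = 0.0736 by limma). Ndrg2, named after its value was seen, differed by 0.28 ± 0.06 and Ndrg3 by 0.05 ± 0.08 (adjusted p = 0.0554 and 0.720 by limma). Schwann and neuronal markers, listed because Schwann cells express Ndrg1 and neurons Ndrg4, were higher for 4 and lower for 2 of 6 measured genes with 0 called. Their summed signal was 62.8% to 81.2% of the control mean in DKO hearts and 93.4% to 109% in control hearts, but the neuronal Snap25 (-0.51 ± 0.13) is by far the brightest of them. The Schwann markers Sox10 (0.30 ± 0.08) and S100b (0.37 ± 0.12) were higher in every DKO heart than in every control heart, and the list median was 0.07. The part of these cells in the Ndrg values was not tested. Of the other cell type lists, 0 of 8 macrophage, 0 of 4 measured lymphocyte, 0 of 4 atrial and 0 of 2 mesothelial markers passed, and the atrial sum was 147% to 219% of the control mean in DKO hearts and 77.1% to 128% in control hearts. Nppa, by far the brightest atrial marker, differed by 0.82 and was the only one higher, while Myl7, Myl4 and Tbx5 gave -1.09, -0.43 and -0.16 (list median -0.29). The Myl7 probe was dim, well above background on 3 control arrays and 1 DKO array. The part of atrial tissue in these values was not tested. Cardiomyocyte markers, of which 0 of 8 passed, summed to 93.7% to 104% in DKO and 97.6% to 104% in control hearts.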

How the data were processed

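RNA from the heart apex of 3 DKO and 4 control mice was hybridised to 1-colour Agilent arrays on 1 slide. Per the file headers, Feature Extraction 12.0.3.1 gave the deposited processed signal, a background-corrected intensity for each spot. The authors' value table holds log2 values centred per probe on the median of all arrays; it correlated at 0.9997 or more with quantile-normalised, centred values computed here, and its software is not stated in the labels or headers. From the intensities, log2 values minus each array's 75th percentile were computed, leaving out control and outlier-flagged spots. Probes well above background on at least 3 arrays were kept, and the brightest kept probe stood for its gene. The group difference was fitted with limma (version 3.58.1, R 4.3.3), with p adjusted by Benjamini-Hochberg over 23679 genes. Of these steps, only the limma fit was tested on simulated data. Of 56605 probes, 32994 have a gene symbol, as do 14723 of the 23679 genes. The rest of the 23679 are array entries without a symbol, which were counted as genes in every share of all genes. The labels name separate mice, and the limma p-values set each group difference against the spread between mice. The variance of each gene was drawn partly from that of all genes. The replicate numbers come from the sample titles. Deviations of same-numbered arrays from their group means correlated at 0.13, 0.01 and 0.03, so the numbers were not taken to pair the samples. The genes, lists and alternatives were chosen with earlier results of these data known. Named genes were the 10 genes, Akt1 and Akt2, and in each pathway list the called genes, or the 2 with the smallest p where none was called. Alternatives changed the normalisation, background correction, filter, probe choice, variance model and blocks, used the authors' values, or left out each array. Promoters were searched on both strands for ACGTG and GCGTG.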

Additional observations from a re-analysis of the deposited data

Results flagged for a closer look

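Among 34 groups of values from the 4 control hearts, 1 held a heart far from the others, and chance alone flags about 1 in 20 such groups. It was the dimmer Egln2 probe, which read 9.91 in control replicate 1 against 10.06 to 10.09 in the other control hearts. The gap made up 0.856 of the control range, above the 95% critical value of Dixon's test.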

How the results depend on the processing

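The number of genes called, 1114, became 555 with normexp background correction, 719 with normexp and quantile normalisation, 121 without the filter, 2008 with a trended variance, 1680 with array weights and 288 with slide row as a block, and ranged from 160 to 1127 with 1 array left out. With the replicate number as a block 1 gene was called, and 0 of the 10 genes described. Of those genes 1 passed with normexp, 2 with normexp and quantile normalisation, 1 each with a filter on all 7 arrays, a trended variance or array weights, and 0 to 1 with an array left out. Ndrg1 passed at a log2 difference of 0.60 with normexp, 0.59 with normexp and quantile normalisation, 0.55 with the filter on all 7 arrays or a trended variance, and 0.65 with array weights, and lay between 0.47 and 0.64 with an array left out. Hif3a passed with normexp and quantile normalisation at 0.51. Egln1 changed sign under quantile normalisation (-0.10), normexp (-0.0245), both (-0.13), the authors' values (-0.0451) and the slide row block (-0.0495), and ranged from -0.0435 to 0.0752 with an array left out. Egln2 gave -0.012, -0.0089, -0.046 and -0.0028 under the first 4 of these, and Epas1 gave -0.091, -0.012, -0.11, -0.036 and, with the slide row block, -0.0003. Vhl ranged from -0.19 to 0.0214 with an array left out. Called HIF partners numbered 1 with median centring and 2 with the filter on all 7 arrays, a trended variance or array weights, and 0 to 1 with an array left out. Called glucose genes numbered 2 with quantile normalisation, the authors' values, a trended variance or array weights, 0 without the filter or with the replicate block, and 0 to 1 with an array left out. Called targets outside glucose use numbered 2 without the filter, 10 with a trended variance, 4 with the slide row block, 0 with the replicate block and 2 to 5 with an array left out. Called Ndrg1 relatives numbered 0 without the filter, with the mean of probes, the replicate block or the slide row block, 2 with the filter on all 7 arrays, a trended variance or array weights, and 0 to 0 with an array left out. The cause of these changes was not tested.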
